A study of Mus musculus with 42 samples.

Results

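RNA was sequenced from the soft tissue of the joint of C57BL/6 mice of wild-type genotype, in a study of knee arthroplasty, the operation in which joint surfaces are replaced by an implant. The comparison described here set 4 libraries labelled RST day 14 against 4 labelled LST day 35, which were 8 of the 24 joint libraries and of the 42 libraries of the whole study. The codes RST and LST are not spelled out in the labels and are kept as they stand, and no age or sex was given in the sources used here. LST was sampled on day 35 only, so every difference between the groups was one of label and of day at once, and the share of each cannot be told apart. A further group, RST day 35 with 4 libraries, is therefore shown beside them where it helps, since it has the label of the first group and the day of the second. The tissue had been flash frozen, RNA was taken up in Trizol, and libraries were built with the NEBNext Ultra II kit from 100 ng of total RNA. The comparison covered all 16149 genes that passed a filter on low counts, of 36604 listed.

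A joint that has been opened heals through phases that overlap in time. Blood-derived macrophages clear debris, fibroblasts lay down collagen and a provisional matrix, and that matrix is later cut back and cross-linked by secreted enzymes. Cells of the capsule and periosteum can form cartilage and bone on the way, osteoclasts remove mineral, the synovial lining makes lubricin and hyaluronan, and injured muscle fibres are rebuilt from satellite cells.

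Total counts per library ran from 20129243 to 27444537 in RST day 14 and from 23275924 to 28024003 in LST. The tissue was rich in skeletal muscle in both groups, and mitochondrially encoded genes took 6.08 to 9.02% of counts in RST day 14 and 9.73 to 11.1% in LST. The 20 most abundant genes took 25.5 to 29.8% of counts in RST day 14 and 32.5 to 34.5% in LST. Along the first principal component of the 8 libraries, which held 80.2% of their variance, the groups did not overlap, and RST day 14 replicate 2 lay farthest from LST and replicate 3 nearest to it. Of the epidermal markers looked for, 3 of 13 were expressed enough to be tested. Values below are counts-per-million (CPM) with trimmed mean of M-values (TMM) scaling, and where 4 values follow each other they are those of replicates 1 to 4. A gene is called higher or lower in RST day 14 where edgeR's quasi-likelihood test gave a Benjamini-Hochberg adjusted p below 0.05, and fold changes are log2 values of RST day 14 over LST with their standard errors (SE). The labels do not say whether replicates came from separate mice, so the p-values measure the spread between these libraries, which may be technical. In bulk tissue, fewer cells of a type and less RNA per cell cannot be told apart.

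Of the 16149 genes, 9350 (57.9%) differed, 5387 higher in RST day 14 (33.4%) and 3963 lower (24.5%). The sizes were uneven. More than 2-fold differences numbered 3183 upward and 176 downward, more than 4-fold ones 1425 and 5, and more than 16-fold ones 237 and 0. The median log2 fold change over all genes was 0.03. With libraries scaled to total counts instead of TMM, the median moved to 0.33 and 87.6% of 8858 calls were upward, against 57.6% of calls under TMM, so falls of less than about that shift depend on the scaling. The CPM ranges of the groups did not overlap for 4921 genes that were above LST (30.5%) and for 3769 that were below it (23.3%). The shares 33.4% and 24.5% and the median of 0.03 are the background for each gene list below.

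**Figure D1:**
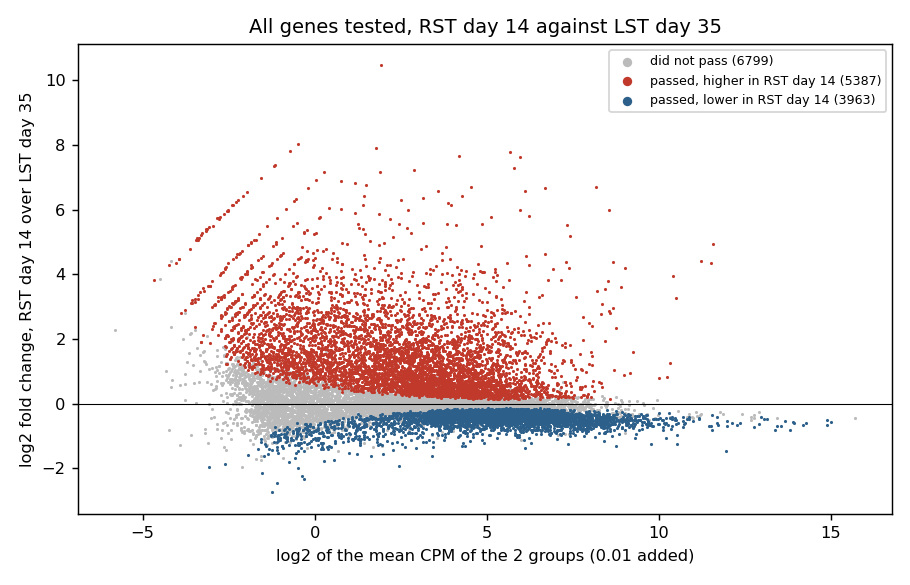
Each point is 1 of 16149 genes, with the log2 of its mean CPM over the 2 groups (0.01 added) on the horizontal axis and its log2 fold change, RST day 14 over LST day 35, on the vertical axis; red points passed and were higher (5387), blue points passed and were lower (3963) and grey points did not pass (6799). The red points reach far higher than the blue points reach low: 1425 genes rose more than 4-fold and 5 fell more than 4-fold.

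By the naming rule, the genes with the largest rises included Acan, Mmp12 and Tnn, treated below, and a pair of receptors for peptides of pain and inflammation. Bdkrb1, the bradykinin B1 receptor, stood at 1.26, 2.71, 1.73 and 2.38 CPM in RST day 14 and at 0, 0.0456, 0 and 0 CPM in LST, where a single count was seen over the 4 libraries, and the ratio of the groups' pooled counts per summed library size was 180.4 (95% counting interval 32.0 to 7161). The other ratios given with a counting interval were formed in the same way. Tacr1, the receptor of substance P, stood at 3.68, 4.83, 1.99 and 3.01 against 0, 0.0456, 0 and 0.0512 CPM, a ratio of 151 (95% counting interval 41.5 to 1252). All RST day 14 libraries were above all LST libraries for both receptors. Brinp3, at 5.52 ± 4.56 against 0.0460 ± 0.0667 CPM (SD, n = 4), rose as well (log2 fold change 6.76, SE 0.96, adjusted p = 4.93e-06, edgeR).

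The falls were small beside them. Mss51, a regulator of muscle mitochondrial metabolism, fell from 98.9 ± 38.1 CPM in LST to 38.7 ± 11.5 CPM (log2 fold change −1.35, SE 0.33, adjusted p = 0.00137, edgeR). Asb2, a muscle ubiquitin ligase subunit, went from 1229 to 518 CPM, and the actin-binding protein gene Avil from 15.6 to 6.20 CPM, both in ranges that did not overlap (−1.25 and −1.33). Otub2, a deubiquitinase (−1.3), Flrt1, a leucine-rich transmembrane protein (−1.29), and the inducible heat shock protein gene Hspa1a (−1.24) were further members of this group. The mitochondrial ribosomal RNA genes mt-Rnr2 (−1.47) and mt-Rnr1 (−1.24) also fell.

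The collagen genes listed rose throughout. All 21 collagen chains of the list were higher in RST day 14, with a median log2 fold change of 3.56, where the same median over all genes was 0.03. Col1a1, the main chain of type I collagen in scar, tendon and bone (chr11:94936224-94953042, mm10), stood at 5240.4, 9629.9, 3721 and 5120.4 CPM in RST day 14 and at 204, 185, 188 and 200.4 CPM in LST (log2 fold change 4.93, SE 0.38, adjusted p = 5.14e-09, edgeR). The lowest RST day 14 library was many times the highest LST library. Col3a1, the chain of early granulation tissue, was at 5562 ± 2215 against 271 ± 23.7 CPM (SD, n = 4) and rose by 4.36. Col12a1, which coats fibrils in tissue under strain, stood at 289.9, 528, 194 and 315 against 9.84, 8.07, 10.2 and 8.14 CPM (log2 fold change 5.19, SE 0.44, adjusted p = 1.16e-08, edgeR). Col5a1, which sets fibril diameter, rose by 3.79. In RST day 35 the level of Col1a1 was 668 ± 179 CPM, below RST day 14 (3.15) and above LST (1.78).

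The enzymes that fold, cut and cross-link collagen rose with the chains. In that list 24 of 28 tested members were higher and 1 lower, with a median log2 fold change of 2.04. P4ha3, a subunit of prolyl 4-hydroxylase, stood at 28.8, 45.9, 19.4 and 28.9 CPM against 0.141, 0.456, 0.554 and 0.563 CPM (log2 fold change 6.15, SE 0.53, adjusted p = 1.26e-08, edgeR). All RST day 14 libraries were far above all LST libraries. Lox, the lysyl oxidase that starts cross-links, was at 229 ± 89.5 against 12.8 ± 2.15 CPM (4.16), Plod2, which hydroxylates the lysines of telopeptides, at 80.7 ± 12.8 against 10.7 ± 1.59 CPM (2.91), and Fkbp10, a collagen chaperone, at 57.5 against 4.77 CPM (3.59). Serpinh1, the collagen chaperone of the endoplasmic reticulum, rose by 2.39.

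Of matricellular and activated fibroblast genes, 35 of 37 tested members were higher and 0 lower, with a median log2 fold change of 2.51. Tnn, tenascin-W (chr1:160085029-160153580), stood at 107, 206, 67.6 and 116 CPM against 0.801, 0.410, 0.767 and 0.460 CPM (log2 fold change 7.65, SE 0.56, adjusted p = 3.24e-09, edgeR). Cthrc1, a secreted protein of activated fibroblasts, stood at 82.5, 175, 79.0 and 101 against 0.801, 0.593, 0.852 and 0.512 CPM (log2 fold change 7.29, SE 0.47, adjusted p = 9.13e-10, edgeR). Postn, periostin, which helps assemble collagen, was at 736 ± 418 against 11.7 ± 1.60 CPM (5.98). Lrrc15, a surface marker of matrix-producing fibroblasts, was at 46.4 ± 19.2 against 0.430 ± 0.185 CPM (6.71), and Ccn4, a Wnt-inducible matricellular protein, at 28.0 ± 12.2 against 0.586 ± 0.150 CPM (5.56). For these 5 genes each RST day 14 library exceeded each LST library. Markers of resting fibroblasts moved less: Dpt rose by 1.74, and Pi16 by 0.57, a call that was lost when single libraries were left out.

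The small proteoglycans that bind fibrils followed the collagens (11 of 13 higher and 0 lower, median 1.91). Bgn, biglycan, was at 886 ± 297 against 71.7 ± 6.34 CPM (3.63), Lum, lumican, at 348 ± 92.6 against 35 ± 3.26 CPM (3.31) and Dcn, decorin, at 664 ± 82.0 against 355 ± 25.2 CPM (0.90). Elastic fibre genes did so too (16 of 18 higher and 0 lower, median 1.92). Fbn2, the fibrillin of developing tissue, stood at 34.3, 62.5, 25.1 and 31.0 against 0.471, 0.274, 0.383 and 0.665 CPM (log2 fold change 6.42, SE 0.57, adjusted p = 1.75e-08, edgeR), while Fbn1, the fibrillin of adult tissue, was at 354 ± 115 against 90.3 ± 10.8 CPM (1.97). Ltbp2, which binds fibrillin, was at 56.9 against 1.20 CPM (5.56), and Eln, elastin, at 189 against 33.5 CPM (2.50).

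Cartilage genes were higher in RST day 14 and varied between its libraries. Of the list, 28 of 36 tested members were higher and 2 lower, with a median log2 fold change of 2.48. Among the transcription factors, Sox9, the master regulator of chondrocytes, stood at 9.72, 18.9, 10.1 and 10.3 CPM against 2.97, 3.15, 3.41 and 3.68 CPM (log2 fold change 1.90, SE 0.24, adjusted p = 1.29e-06, edgeR). Its partner Sox6, which skeletal muscle fibres also express, went the other way and stood at 119, 124, 151 and 154 against 200.4, 243, 226 and 228 CPM (log2 fold change −0.71, SE 0.16, adjusted p = 0.000697, edgeR). For neither gene did the groups overlap.

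Matrix genes of cartilage made the largest part of the rise (17 of 18 higher and 0 lower, median 4.02). Acan, aggrecan, the proteoglycan that gives cartilage its swelling pressure (chr7:79053483-79115099), stood at 107, 155, 51.6 and 91.8 CPM in RST day 14 and at 0.424, 0.319, 0.724 and 0.307 CPM in LST (log2 fold change 7.80, SE 0.53, adjusted p = 1.7e-09, edgeR). Col2a1, the fibrillar collagen of cartilage (chr15:97975602-98004695), stood at 167, 71.1, 12.5 and 243 against 4.90, 1.19, 1.15 and 0.512 CPM (log2 fold change 5.99, SE 0.86, adjusted p = 5.5e-06, edgeR). Both were above LST in all RST day 14 libraries, but Col2a1 in replicate 3 was close to the highest LST library, and replicates 1 and 4 were far above it. Hapln1, the link protein that holds aggrecan to hyaluronan, was at 8.96 ± 4.49 against 0.172 ± 0.197 CPM (5.73), and Comp, a glycoprotein of cartilage and tendon, at 205 ± 57.4 against 14.5 ± 4.30 CPM (3.82). Col9a3, a chain of the collagen on the fibril surface, stood at 10.6, 4.67, 0.399 and 11.9 against 0.424, 0.365, 0.298 and 0.205 CPM (log2 fold change 4.38, SE 0.69, adjusted p = 1.64e-05, edgeR). Replicate 3 lay inside the LST range there. Cnmd, chondromodulin, an inhibitor of vessel growth in cartilage, stood at 5.42, 1.87, 0.0886 and 4.36 against 0.141, 0.182, 0.256 and 0.256 CPM (log2 fold change 3.76, SE 0.70, adjusted p = 0.000113, edgeR), and in replicate 3 it was below every LST library.

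Hypertrophic cartilage markers were mixed (5 of 11 higher and 1 lower, median 0.65). Col10a1, the collagen of hypertrophic chondrocytes, stood at 5.32, 2.71, 0.0886 and 10.8 against 0.188, 0.0456, 0.170 and 0 CPM (log2 fold change 5.43, SE 1.02, adjusted p = 0.00013, edgeR), with replicate 3 again inside the LST range. Pth1r, the receptor of parathyroid hormone-related protein, was at 12 ± 4.22 against 2.26 ± 0.536 CPM (2.41). The hedgehog targets Ptch1, at 15 ± 2.29 against 17.9 ± 0.424 CPM, and Gli1, at 3.48 ± 1.04 against 2.53 ± 0.731 CPM, did not pass the test. With the 2 groups fitted alone, fewer members of the cartilage list passed the filter, and 21 of 29 tested were called higher. In the fit over all joint libraries it was 28 of 36. The log2 ratio of Col2a1 to Col1a1 per kilobase of exon was −6.66 in RST day 14 and −7.53 in LST, a difference of 0.87 that the exact two-sided permutation test did not pass (p = 0.4, adjusted 0.5). The mean log2 CPM of the list was 2.76 in replicate 3 and 3.84 to 4.04 in the other RST day 14 libraries.

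**Figure D2:**
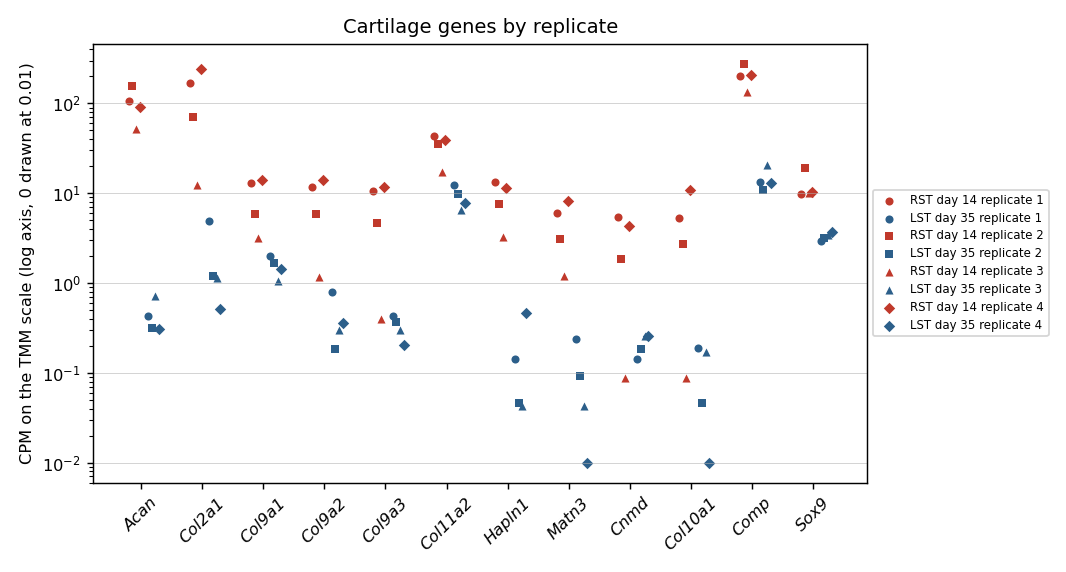
CPM (log axis, values of 0 drawn at 0.01) of 12 cartilage genes in each library, with RST day 14 in red, LST day 35 in blue and the marker shape giving the replicate. RST day 14 replicate 3 (triangles) lies lowest for Col2a1, Col9a2, Col9a3, Cnmd and Col10a1, while Acan, Comp and Sox9 are above LST in all 4 libraries.

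Genes of bone formation rose in part (13 of 22 higher and 3 lower, median 1.84). Runx2, the transcription factor that commits cells to bone, stood at 6.87, 11.3, 3.99 and 6.79 CPM in RST day 14 against 1.41, 0.638, 1.28 and 0.512 CPM in LST (log2 fold change 2.90, SE 0.37, adjusted p = 1.25e-06, edgeR), and Sp7, which acts after it, was at 1.68 ± 0.969 against 0.186 ± 0.225 CPM (3.14). Spp1, osteopontin, a protein of bone and of macrophages, was at 575 ± 175 against 5.55 ± 1.16 CPM (6.70). Ibsp, bone sialoprotein, stood at 36.7, 19.8, 3.19 and 20.2 against 4.05, 1.19, 1.62 and 0.665 CPM (log2 fold change 3.40, SE 0.85, adjusted p = 0.00176, edgeR), in ranges that overlapped. Of the mineralisation genes, Alpl and Bglap did not pass: Alpl, the alkaline phosphatase of mineralising cells, was at 16.5 ± 2.72 against 18.2 ± 2.80 CPM, and Bglap, osteocalcin, at 0.988 ± 0.600 against 0.588 ± 0.535 CPM (SD, n = 4). Dmp1, a protein of osteocytes, rose by 2.88 from 0.226 to 1.73 CPM.

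Osteoclasts form from macrophage precursors when RANKL, encoded by Tnfsf11, binds its receptor, while osteoprotegerin, encoded by Tnfrsf11b, takes RANKL away. Of the osteoclast list, 17 of 22 tested members were higher and 2 lower, with a median log2 fold change of 2.60. Tnfsf11 (chr14:78277445-78308043) stood at 2.13, 6.45, 3.90 and 5.49 CPM in RST day 14 and at 0.0471, 0.0456, 0 and 0.0512 CPM in LST, where 3 counts were seen in all, a ratio of pooled counts of 135 (95% counting interval 46.0 to 658). Tnfrsf11b was at 3.87, 4.19, 1.82 and 2.74 against 0.377, 0.547, 0.639 and 0.358 CPM (log2 fold change 2.69, SE 0.33, adjusted p = 7.53e-07, edgeR), so both the ligand and its decoy were higher. The log2 ratio of ligand to decoy per kilobase of exon, with 2 added to each count, was −0.50, 0.95, 1.40 and 1.31 in RST day 14 and −1.40, −1.89, −2.75 and −1.25 in LST. The difference of the group means was 2.61 (exact two-sided permutation test, p = 0.0286, the smallest that 4 against 4 can give, and 0.0476 after adjustment over 5 such values). Leaving out any 1 library gave 2.30 to 3.04 and an exact p of 0.0571. With 3 LST counts of Tnfsf11 in all, the LST ratios and the size of this difference depend on the 2 added to each count.

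Of the genes of bone resorption, 7 of 11 were higher and 2 lower, the latter Car2, a carbonic anhydrase (−0.60), and Ostm1, a partner of a chloride channel (−0.22), both named after their values were seen. With total-count scaling neither was called and the sign of Ostm1 changed. Among the higher ones were Ctsk, cathepsin K, at 170.0, 292, 128 and 212 against 10.7, 6.84, 8.35 and 6.65 CPM (log2 fold change 4.62, SE 0.38, adjusted p = 9.89e-09, edgeR), Acp5, tartrate-resistant phosphatase, at 52.7 ± 18.9 against 3.06 ± 1.13 CPM (4.11), and Atp6v0d2, a proton pump subunit of fusing osteoclasts, at 12.6 ± 4.30 against 0.295 ± 0.195 CPM (5.42). Dcstamp, a fusion protein, had 3 counts in LST and a ratio of 46.4 (95% counting interval 15.6 to 228). The transcription factor of osteoclasts, Nfatc1, and the calcitonin receptor gene Calcr did not pass. Nfatc1 stood at 62.7 ± 2.24 against 64.3 ± 3.59 CPM, was called higher with total-count scaling (0.25), which moved the median over all genes from 0.03 to 0.33, and Calcr at 0.533 ± 0.0681 against 0.512 ± 0.174 CPM. Macrophage genes were higher too (45 of 57), with list means of 4.27 to 5.13 log2 CPM in RST day 14 and 2.09 to 2.56 in LST. The means of the osteoclast list were 3.03 to 3.96 and 0.98 to 1.37 log2 CPM. Csf1r and Trem2 are members of both lists, and the part of macrophages in the osteoclast values was not tested.

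Tendon genes rose as well (10 of 12 higher and 0 lower, median 2.01), in a list that shares Fmod and Cilp2 with the cartilage list. Scx, the tendon transcription factor, stood at 27.6, 35.2, 23.9 and 30.2 against 10.6, 9.35, 10.9 and 8.80 CPM (log2 fold change 1.56, SE 0.26, adjusted p = 3.88e-05, edgeR). Mkx, which acts beside it, was at 5.86 ± 1.01 against 1.07 ± 0.271 CPM (2.45), and Tnmd, tenomodulin, a membrane protein of mature tendon cells, at 68.4 ± 16.4 against 4.49 ± 1.22 CPM (3.93). No RST day 14 library was as low as any LST library for these 3 genes.

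Matrix metalloproteases, zinc enzymes that cut collagens and other matrix proteins, were higher with few exceptions (12 of 15 higher and 1 lower, median 3.12). Several lie side by side on chromosome 9, and in many cell types they respond to the transcription factor AP-1. To show that feature for the genes with the largest rises, 150 bases before the start site are printed for Mmp13, Mmp3 and Mmp12 from RefSeq on GRCm38.p6, 5′ to 3′ on the plus strand, with matches to TGANTCA, the AP-1 letters on both strands, in capitals. The windows are chr9:7272364-7272513 for Mmp13, chr9:7445672-7445821 for Mmp3 and chr9:7347224-7347373 for the second of the start sites that RefSeq gives Mmp12. The first Mmp12 start site, with window chr9:7344247-7344396, had no match.
Mmp13: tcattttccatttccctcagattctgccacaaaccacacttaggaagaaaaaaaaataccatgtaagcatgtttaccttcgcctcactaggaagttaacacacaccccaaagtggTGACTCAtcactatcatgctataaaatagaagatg
Mmp3: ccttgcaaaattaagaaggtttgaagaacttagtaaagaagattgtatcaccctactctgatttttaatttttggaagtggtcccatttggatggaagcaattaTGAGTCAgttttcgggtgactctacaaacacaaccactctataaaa
Mmp12: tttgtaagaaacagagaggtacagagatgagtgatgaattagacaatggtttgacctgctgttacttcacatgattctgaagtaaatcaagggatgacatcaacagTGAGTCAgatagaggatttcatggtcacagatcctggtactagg
The match began 35, 46 and 44 bases before the start site. Within 250 bases before a start site, these letters were found in 3 of 10 tested metalloprotease genes with a promoter in the RefSeq table (30.0%), in 4 of 16 tested genes of the type I interferon list (25.0%), in 705 of 11752 tested genes (6.0%) and in 2113 of 27025 genes in all (7.82%). A match is a string of letters and says nothing of binding.

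Mmp13, a collagenase of cartilage and bone (chr9:7272514-7283331), stood at 126, 174, 75.2 and 167 CPM in RST day 14 and at 2.68, 0.775, 1.24 and 0.972 CPM in LST (log2 fold change 6.58, SE 0.60, adjusted p = 2.19e-08, edgeR). Mmp12, the elastase of macrophages (chr9:7344381-7369499), stood at 25.5, 47.9, 44.9 and 28.2 against 0.188, 0.182, 0.128 and 0.205 CPM (log2 fold change 7.67, SE 0.53, adjusted p = 1.98e-09, edgeR). Mmp3, stromelysin, stood at 24, 38.9, 18.5 and 17.9 against 0.848, 0.912, 1.45 and 1.38 CPM (log2 fold change 4.43, SE 0.45, adjusted p = 8.79e-08, edgeR). The groups were separate for each. Mmp14, which is bound to the cell membrane and activates Mmp2, was at 319 ± 124 against 17.2 ± 1.86 CPM (4.21), and Mmp2, gelatinase A, at 542 ± 196 against 47.9 ± 2.51 CPM (3.50). Mmp8, the collagenase of neutrophils, lies in the same cluster and did not pass, at 0.523 ± 0.448 against 0.712 ± 0.660 CPM.

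Inhibitors of these enzymes and genes of plasminogen activation were mostly higher, with exceptions (11 of 15 higher and 1 lower, median 1.82). Timp1, which fibroblasts and macrophages make in injury, stood at 61.2, 100.1, 40.9 and 73.3 against 1.37, 1.0, 1.11 and 1.53 CPM (log2 fold change 5.79, SE 0.49, adjusted p = 1.26e-08, edgeR). Timp3, which stays bound in the matrix, did not pass, at 55.4, 64.4, 59.0 and 66.6 against 63.3, 64.2, 62.4 and 63.0 CPM. Timp4, at 14.6 ± 5.40 against 25.9 ± 7.49 CPM, was called lower (−0.84), but not with total-count scaling and not in every fit with a library left out. In plasminogen activation, the receptor gene Plaur (12.4 against 0.874 CPM, 3.81) and the urokinase gene Plau (37.6 against 19.3 CPM, 0.97) rose. Of the disintegrin proteases, 19 of 22 tested members were higher and 0 lower, with a median log2 fold change of 1.92. Adam12, of fusing and fibrogenic cells, was at 33.7 ± 18.9 against 0.723 ± 0.440 CPM (5.53). Adamts4, an aggrecanase, was at 16.8 ± 7.41 against 1.37 ± 0.325 CPM (3.63), and the other aggrecanase Adamts5 at 35.5 ± 8.59 against 23.3 ± 1.44 CPM (0.60).

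Genes of the synovial lining, the cell layer that faces the joint fluid, were divided (13 of 20 higher and 1 lower, median 2.01). Prg4, lubricin (chr1:150449412-150466165), stood at 806, 1257, 558 and 1331 CPM in RST day 14 and at 77.0, 14.4, 47.8 and 74.1 CPM in LST (log2 fold change 4.21, SE 0.55, adjusted p = 1.62e-06, edgeR). Has1, a hyaluronan synthase, stood at 5.76, 23.7, 17.2 and 26.8 against 0.895, 0.319, 0.511 and 0.767 CPM (log2 fold change 4.89, SE 0.70, adjusted p = 5.26e-06, edgeR), and Cemip, which breaks hyaluronan down, at 20.8, 34.4, 14.2 and 25.1 against 0.330, 0.137, 0.128 and 0.409 CPM (log2 fold change 6.57, SE 0.55, adjusted p = 9.89e-09, edgeR). Both the making and the breaking of hyaluronan were thus represented among the rises. Has2 rose by 2.67, and Cd44, a hyaluronan receptor of many cells, by 3.35. Clic5, a chloride channel protein of lining fibroblasts that muscle expresses too, was lower (−0.62), and Cd55, a complement regulator of the lining, did not pass (−0.05) and was called higher with total-count scaling (0.23).

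Ligands and receptors of the transforming growth factor family, which drive collagen synthesis and skeletal growth, differed in selected members (29 of 53 higher and 8 lower, median 0.47). Inhba, which encodes activin A, stood at 28.4, 51.1, 30.1 and 73.1 CPM in RST day 14 against 4.38, 2.14, 3.41 and 2.25 CPM in LST (log2 fold change 3.90, SE 0.43, adjusted p = 2.11e-07, edgeR), and Tgfb1 at 36.3 ± 7.20 against 8.23 ± 1.59 CPM (2.14). Tgfb3 rose by only 0.49. Grem1, an antagonist of bone morphogenetic proteins, was at 1.13 ± 0.806 against 0.0904 ± 0.0840 CPM (3.54), whereas Nog, another such antagonist, was at 4.65 ± 1.25 against 5.92 ± 1.40 CPM and did not pass. Mstn, myostatin, the muscle-made brake on muscle growth, fell from 82.6 ± 9.31 to 40.2 ± 7.75 CPM (−1.04). The receptor gene Tgfbr1 (0.08) and the feedback inhibitor Smad7 (−0.23) did not pass, both without a call beside the ligands that rose.

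In the Wnt family (17 of 36 higher and 4 lower, median 0.57) 5 of 9 secreted antagonists were higher and 1 lower, and the 4 lower calls of the family became 2 without RST day 14 replicate 2 or 4. Sfrp2 stood at 50.4, 87.0, 32.0 and 52.5 against 3.44, 3.33, 3.28 and 2.97 CPM (log2 fold change 4.09, SE 0.30, adjusted p = 2.73e-09, edgeR), Sfrp1 was at 29.8 ± 14 against 3.0 ± 0.451 CPM (3.31), Sfrp4 rose by 2.51 and Dkk3 by 1.57, while the antagonists Frzb (0.48) and Wif1 (−0.03) did not pass. Ror2, a receptor for Wnt5a, was at 6.56 ± 2.32 against 0.570 ± 0.259 CPM (3.50), while Wnt5a itself (0.16) and Axin2, a target of the canonical pathway (−0.24), did not pass.

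Growth factors for mesenchymal cells rose in most cases (22 of 31 higher and 1 lower, median 1.12). Hgf, hepatocyte growth factor, stood at 2.56, 5.83, 2.22 and 2.65 against 0.141, 0.0456, 0.298 and 0.153 CPM (log2 fold change 4.33, SE 0.51, adjusted p = 4.85e-07, edgeR). Igf1, which promotes growth of muscle, cartilage and bone, stood at 149, 234, 146 and 131 against 14.2, 16.3, 18.6 and 18.4 CPM (log2 fold change 3.29, SE 0.25, adjusted p = 3.5e-09, edgeR). Both were separate between the groups. Mdk, midkine, a heparin-binding factor of embryonic and injured tissue, was at 21.7 ± 7.57 against 1.14 ± 0.272 CPM (4.25). Imprinted genes of fetal growth were among the rises: Igf2 by 1.12, H19 by 0.84 and Dlk1 by 2.85.

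Cytokines of innate immunity were at low levels in both groups, and most of those tested were higher in RST day 14 (17 of 19 higher and 0 lower, median 2.66). The list has 27 members, and 19 passed the low-count filter. That filter ran over all 6 joint groups and can keep a gene for its level in RST alone. Il1b, the main interleukin-1 of macrophages, stood at 14.9, 19.9, 4.30 and 3.19 CPM against 0.377, 0.182, 0.128 and 0.205 CPM (log2 fold change 5.56, SE 0.93, adjusted p = 3.47e-05, edgeR), and its antagonist Il1rn at 20.5, 24.6, 6.43 and 7.02 against 0.0942, 0.0912, 0.128 and 0.0512 CPM (log2 fold change 7.23, SE 1.02, adjusted p = 4.08e-06, edgeR). Agonist and antagonist thus rose side by side, without overlap between the groups. Il6 stood at 0.871, 2.71, 0.665 and 0.540 against 0, 0.0912, 0.0852 and 0.102 CPM (log2 fold change 4.06, SE 0.95, adjusted p = 0.00108, edgeR), and the related Osm, oncostatin M, rose by 4.34. Acod1, the macrophage enzyme that makes itaconate, stood at 14.7, 12.7, 1.51 and 1.35 CPM in RST day 14 and had no count in any LST library, which puts it at least 227-fold higher against a floor of 3 counts per group. Il10, an anti-inflammatory cytokine, had no LST count either and was at 0.142 CPM, at least 4.17-fold higher. Arg1, arginase, rose by 4.47, and Ptgs2, the inducible prostaglandin synthase, by 4.29. Nos2, the inducible nitric oxide synthase, did not pass, at 4.59 ± 0.853 against 3.84 ± 0.330 CPM. Of the receptors, 21 of 27 tested members were higher and 1 lower, with a median log2 fold change of 1.75. Among them Tnfrsf1b, a receptor of tumour necrosis factor on leukocytes, rose by 2.42, and Socs3, a feedback inhibitor of the Il6 family, by 2.57, while Tnfrsf12a, the receptor of TWEAK, did not pass (−0.05).

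Chemokines, which draw leukocytes into tissue, rose with their receptors (ligands 21 of 27 higher and 2 lower, median 2.67; receptors 12 of 13 higher and 0 lower, median 2.71). Cxcl5, a ligand for neutrophil receptors, stood at 5.42, 10.4, 2.75 and 2.34 against 0.0942, 0.0456, 0.0426 and 0.102 CPM (log2 fold change 6.15, SE 1.04, adjusted p = 3.94e-05, edgeR). Ccl3, with 1 count over the LST libraries, stood at 2.40 CPM, a ratio of 215 (95% counting interval 38.3 to 8537). Ccl8, which attracts monocytes, was at 10.1 ± 3.17 against 0.461 ± 0.0965 CPM (4.44), and Ccl2 at 4.03 ± 1.15 against 0.379 ± 0.159 CPM (3.43). The monocyte receptor Ccr2 rose by 2.14 and Cx3cr1, the fractalkine receptor, by 3.85. Cxcl14, made by many resting stromal cells, did not pass (40.8 against 39.8 CPM, 0.04).

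Macrophage genes were mostly higher in each of the classes listed. Those of recruited and activated cells were higher (23 of 25 higher and 0 lower, median 3.30): Clec4n, the Dectin-2 receptor, stood at 15.7, 28.3, 12.6 and 13 against 0.141, 0.228, 0.298 and 0.153 CPM (log2 fold change 6.35, SE 0.56, adjusted p = 1.6e-08, edgeR), and Lyz2, lysozyme, was at 636 ± 181 against 54.2 ± 8.70 CPM (3.55). Lipid-handling genes were higher too (11 of 14 higher and 2 lower, median 1.75): Trem2, a lipid receptor, stood at 17.0, 25, 13.2 and 14.4 against 0.283, 0.410, 0.341 and 0.409 CPM (log2 fold change 5.58, SE 0.42, adjusted p = 3.32e-09, edgeR), and Gpnmb, of macrophages that have taken up debris, was at 73.9 ± 20.6 against 4.70 ± 0.531 CPM (3.98). The groups were separate for these 4 genes. Genes usually assigned to resident cells had calls both ways (11 of 18 higher and 3 lower, median 1.31). Adgre1, which encodes F4/80, rose by 3.07, Csf1r by 2.0 and Mrc1, the mannose receptor, by 1.72. Timd4, a receptor of long-lived resident macrophages, was at 0.387, 0.419, 0.532 and 0.135 against 1.51, 0.593, 0.894 and 1.18 CPM and lower (log2 fold change −1.47, SE 0.33, adjusted p = 0.0007, edgeR). Cd163, the haemoglobin scavenger receptor, stood at 9.24, 8.25, 8.91 and 8.28 against 10.1, 10.2, 14.8 and 14.3 CPM and did not pass (−0.51), nor did Lyve1 (0.20) or Vsig4 (−0.50). The monocyte gene Ly6c2, at 1.11 ± 0.563 against 0.513 ± 0.467 CPM, did not pass either.

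Neutrophil granule genes did not follow. Of 15 tested members of that list, 4 were higher and 0 lower, with a median log2 fold change of −0.37. Without RST day 14 replicate 2 those counts were 2 higher and 3 lower. S100a8 stood at 9.87, 15.3, 2.70 and 4.09 CPM in RST day 14 and 12.7, 2.10, 4.17 and 1.33 CPM in LST, and S100a9 at 13, 22.8, 3.86 and 5.04 and 17.1, 2.69, 7.41 and 1.64 CPM, with overlap in both. The members that rose include Csf3r, the receptor of granulocyte colony-stimulating factor (3.52), and Mmp9, gelatinase B (3.45), which macrophages and osteoclasts also express. Cxcr2 (2.52) and Padi4 (1.26) rose as well, and both calls were lost without RST day 14 replicate 2.

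Complement and Fc receptor genes were mostly higher (15 of 19 higher and 1 lower, median 1.59). The receptors C3ar1 (3.62) and C5ar1 (2.58) and the activating immunoglobulin receptor Fcgr4 (4.49) rose, whereas C3, the central component, did not pass at 143 ± 49.0 against 104 ± 19.1 CPM. Of Toll-like receptors and their signalling genes, 14 of 15 tested members were higher and 0 lower, with a median log2 fold change of 2.07, with Tlr13, which senses bacterial ribosomal RNA, at 6.20 ± 3.0 against 0.334 ± 0.179 CPM (4.19) and Tlr2 at 12.1 ± 5.34 against 1.29 ± 0.114 CPM (3.23).

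Genes that answer type I interferon rose together and by modest factors: 21 of 24 tested members were higher and 0 lower, with a median log2 fold change of 1.40. Their promoters often carry the interferon-stimulated response element. For 3 genes of the list whose start region holds its letters, 150 bases before the start are printed from RefSeq on GRCm38.p6, 5′ to 3′ in the direction of the gene, with matches to GAAANNGAAA on either strand (TTTCNNTTTC when read on the other) in capitals. The windows are chr4:156200819-156200968 on the minus strand for Isg15, chr19:34640739-34640888 on the plus strand for Ifit1 and chr19:34583379-34583528 on the plus strand for Ifit3.
Isg15: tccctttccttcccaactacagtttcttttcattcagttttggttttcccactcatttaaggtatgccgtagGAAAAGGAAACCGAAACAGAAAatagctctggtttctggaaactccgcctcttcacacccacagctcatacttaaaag
Ifit1: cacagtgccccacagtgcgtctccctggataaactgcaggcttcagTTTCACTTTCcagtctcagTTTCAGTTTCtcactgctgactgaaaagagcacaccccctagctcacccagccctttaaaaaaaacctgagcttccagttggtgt
Ifit3: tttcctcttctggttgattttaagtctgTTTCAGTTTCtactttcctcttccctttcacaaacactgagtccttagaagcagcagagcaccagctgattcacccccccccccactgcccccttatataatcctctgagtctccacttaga
Isg15 had 3 overlapping matches, 78, 72 and 66 bases before the start, Ifit1 had matches at 104 and 85, and Ifit3 had 1 at 122. Within 250 bases before a start, the letters were found in 8 of 16 tested members of the list with a promoter in the table, in 1 of 10 tested metalloprotease genes, in 394 of 11752 tested genes (3.35%) and in 936 of 27025 genes in all (3.46%). The match is a description of the sequence and no measure of binding.

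Isg15, a ubiquitin-like protein, stood at 5.90, 7.35, 3.06 and 4.59 CPM in RST day 14 and 1.70, 0.866, 1.53 and 2.10 CPM in LST (log2 fold change 1.77, SE 0.39, adjusted p = 0.000574, edgeR). Ifit1, which binds foreign RNA, stood at 7.93, 9.06, 4.26 and 4.81 against 2.36, 1.69, 2.34 and 2.66 CPM (log2 fold change 1.53, SE 0.32, adjusted p = 0.000405, edgeR), and Ifit3, its partner, was at 8.48 ± 3.81 against 3.31 ± 0.444 CPM (1.36). The groups did not overlap for the 3 genes. Irf7, the transcription factor that amplifies the response, rose by 1.72. RST day 35 was near LST here: Isg15 was at 1.69 ± 0.413 CPM and Ifit1 at 2.35 ± 0.241 CPM, and of the list 0 members were higher and 0 lower in RST day 35 than in LST. In that last comparison 2.92% of all genes were higher and 0.0495% lower.

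Of genes induced by interferon gamma, 12 of 20 tested members were higher and 0 lower, with a median log2 fold change of 0.67. Ciita, the switch of class II antigen presentation, rose by 1.27, Gbp2, a guanylate-binding protein, by 0.66 and Irf1 by 0.67. Class II genes themselves were higher (10 of 12 higher and 0 lower, median 1.79). H2-Ab1 stood at 98.9, 96.6, 57.4 and 61.8 against 26.5, 21.6, 22.7 and 21 CPM (log2 fold change 1.78, SE 0.17, adjusted p = 3.57e-08, edgeR), and Ctss, the protease that trims the invariant chain, at 93.2 ± 28.4 against 6.52 ± 1.37 CPM (3.84). Dendritic cell genes rose in part (8 of 13 higher and 0 lower, median 0.99): Flt3, a cytokine receptor of their precursors, rose by 2.14, but Zbtb46, which marks the lineage and is also expressed in endothelium, did not pass (−0.02), nor did Clec9a (0.30).

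Lymphocyte genes were low. Of the T and natural killer cell list, 9 of 12 tested members were higher and 0 lower, with a median log2 fold change of 2.71, but 6 of 12 were higher without RST day 14 replicate 2, and 3 of the 6 that could be tested with the 2 groups fitted alone. Cd4, which mouse macrophages and dendritic cells can also express, was at 2.43 ± 1.63 against 0.225 ± 0.232 CPM (3.45). Among T cell receptor components, Trbc2 rose by 3.27, while Cd3e was at 1.65 ± 0.800 against 2.20 ± 0.752 CPM and did not pass (−0.39). The natural killer cell receptor gene Klrd1 rose by 3.40. The calls of Trbc2 and Klrd1 were kept in every alternative fit that tested them. Gzma, a granzyme, rose from 0.0488 to 0.335 CPM (2.73). B and plasma cell genes showed few calls (3 of 13 higher and 0 lower, median 0.80). Ms4a1 stood at 0.435, 0.322, 1.20 and 1.08 against 0.471, 0.593, 0.341 and 0.0512 CPM, with overlap and no call. Sdc1, syndecan-1, was called (3.71) and is expressed by fibroblasts and epithelia as well as plasma cells. Of the mast cell list, 2 of 8 tested members were higher and 0 lower, with a median log2 fold change of 0.05, and the proteases Cma1 (0.25) and Mcpt4 (−0.36) did not pass.

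Endothelial genes differed by smaller factors (24 of 35 higher and 3 lower, median 0.44). Pecam1, which endothelium expresses throughout, stood at 107, 102, 85.3 and 85.0 against 68.8, 54.7, 68.7 and 58.1 CPM (log2 fold change 0.60, SE 0.10, adjusted p = 3.31e-05, edgeR), while Kdr, the main receptor of vascular endothelial growth factor, did not pass at 61.5 ± 12.9 against 60.3 ± 8.70 CPM. Of the genes of vessel growth and lymphatic vessels, 12 of 18 tested members were higher and 2 lower, with a median log2 fold change of 0.81, and of those of endothelial identity, 12 of 17 tested members were higher and 1 lower, with a median log2 fold change of 0.33. Apln, apelin, made by tip cells, stood at 11.4, 9.93, 8.82 and 9.72 against 2.50, 1.78, 1.87 and 1.53 CPM (log2 fold change 2.37, SE 0.24, adjusted p = 6.99e-08, edgeR), Angpt2, which loosens vessel walls, was at 5.20 ± 0.658 against 1.94 ± 0.315 CPM (1.42), and Plvap, an identity gene of fenestrated endothelium, at 59.6 ± 13.7 against 19.3 ± 2.72 CPM (1.63). Angpt1 did not pass (−0.06). Vegfa, the growth factor itself, which muscle fibres make, was at 239 ± 59.3 against 334 ± 16.2 CPM and called lower (−0.48), a call that total-count scaling removed. Prox1, the transcription factor of lymphatic endothelium and also of muscle, rose by 1.05. Pericyte and smooth muscle genes were divided (7 of 16 higher and 3 lower, median 0.19): Acta2, smooth muscle actin, which myofibroblasts express, was at 56.9 ± 12.7 against 25.9 ± 2.09 CPM (1.14), and Myh11, specific to smooth muscle, did not pass (−0.11).

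Adult muscle genes were lower by small factors (2 of 54 higher and 26 lower, median −0.47), and this count depended on scaling and on 1 library: it was 3 higher and 12 lower with total-count scaling and 1 higher and 16 lower without RST day 14 replicate 2. Acta1, the actin of skeletal fibres, stood at 26974, 20893, 29350.5 and 29298 CPM in RST day 14 and 40938, 40259.7, 39184 and 38073 CPM in LST (log2 fold change −0.57, SE 0.17, adjusted p = 0.00678, edgeR), with no overlap. Tnnt3, the fast troponin T, was lower by the same order (−0.60), as was Actn3, the fast Z disc actinin (−0.68). Myosin heavy chain genes did not pass: the fast chain gene Myh4 stood at 36869, 39290.4, 50609 and 55113 against 58249.5, 62868, 58631 and 67905 CPM (−0.45) and the slow chain gene Myh7 at 623, 91.4, 121 and 64.6 against 336, 91.3, 347 and 445 CPM (−0.44). Of the counts per kilobase of exon of the heavy chain genes Myh1, Myh2, Myh3, Myh4, Myh7 and Myh8, Myh4 made 87.5% in RST day 14 and 88.6% in LST (exact two-sided permutation test, p = 0.83). The Myh4 share was thus not shown to differ, and the mixture of fast and slow chains was not tested. Ppargc1a, the coactivator of mitochondrial growth, fell (−0.71).

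The mean of the adult muscle list was 9.44 to 10.14 log2 CPM in RST day 14 and 10.09 to 10.39 in LST, and the part of a changed muscle share in other results was not tested.

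Several genes of rebuilt fibres were higher. Of the developmental and remodelling sarcomere genes, 8 of 13 tested members were higher and 2 lower, with a median log2 fold change of 0.79. Myh8, the perinatal myosin, stood at 20.5, 43.9, 10.2 and 10.03 CPM in RST day 14 against 5.79, 5.38, 6.43 and 6.19 CPM in LST (log2 fold change 1.84, SE 0.31, adjusted p = 4.18e-05, edgeR), and Myh3, the embryonic myosin, at 17.1, 13, 8.42 and 4.86 against 4.33, 2.64, 4.69 and 3.43 CPM (log2 fold change 1.52, SE 0.39, adjusted p = 0.00205, edgeR). Both were above every LST library in all 4 RST day 14 libraries. Together these chains made 0.0451 ± 0.0304% of the same myosin sum in RST day 14 and 0.00977 ± 0.00191% in LST (SD, n = 4; exact two-sided permutation test, p = 0.0286, adjusted 0.0476), and the difference of 0.0353 percentage points ranged from 0.0232 to 0.0448 with any 1 library left out. Mymk, the fusion protein myomaker, stood at 2.27, 3.64, 1.77 and 1.26 against 0.141, 0, 0 and 0.205 CPM (log2 fold change 4.71, SE 0.65, adjusted p = 2.97e-06, edgeR), and Ncam1, of new and denervated fibres, was at 17.1 ± 4.10 against 5.26 ± 0.598 CPM (1.70). The regulators upstream showed no such rise (3 of 14 higher and 4 lower, median −0.12). Pax7, the satellite cell factor, was at 2.93 ± 0.644 against 3.06 ± 0.337 CPM, Myf5 was at 1.32 against 1.46 CPM, and Myog, myogenin, was at 9.46 ± 1.13 against 11.1 ± 4.49 CPM, none of them called. Myf6 (−0.73) and Cdh15 (−0.72) were called lower, and total-count scaling removed the call of Myf6.

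Of the endplate list, 5 of 23 tested members were higher and 6 lower, with a median log2 fold change of −0.16, beside 33.4% higher and 24.5% lower over all genes, and 3 were higher without RST day 14 replicate 2 or LST replicate 3. Chrng, the fetal subunit of the acetylcholine receptor, stood at 0.919, 3.35, 1.11 and 0.630 against 0.236, 0.0912, 0.0426 and 0.153 CPM (log2 fold change 3.57, SE 1.26, adjusted p = 0.0189, edgeR), a call lost without RST day 14 replicate 2 or LST replicate 3. Its adult counterpart Chrne was at 9.23 ± 2.20 against 10.5 ± 1.31 CPM (−0.20). The log2 ratio of fetal to adult subunit per kilobase of exon, with 2 added to each count, was −4.09 ± 1.29 in RST day 14 and −6.95 ± 0.54 in LST (SD, n = 4). The difference was 2.86 (exact two-sided permutation test, p = 0.0286, the smallest that 4 against 4 can give, adjusted 0.0476). It ran from 2.22 to 3.18 with any 1 library left out. Chrng was near the floor in LST, so the LST ratios and the size of this difference depend on the 2 added to each count. Fbxo32 and Trim63, the ubiquitin ligases of muscle atrophy, were lower: Fbxo32 stood at 287, 154, 302 and 253 against 752, 563, 453 and 706 CPM (log2 fold change −1.31, SE 0.23, adjusted p = 5.39e-05, edgeR), and Trim63 fell by 1.01 on the log2 scale. Prima1, which anchors acetylcholinesterase, was also lower (−1.54).

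Transcripts of mitochondrial respiration were mostly lower in RST day 14, by factors that the choice of scaling affects. Those of glycolysis had calls both ways. All 8 mitochondrially encoded genes tested were lower under every setting tried, with a median of −0.70 under TMM and −0.43 with total-count scaling. The oxidase subunit gene mt-Co1 stood at 25395, 16152, 28911 and 23167 against 35497, 39679, 37938 and 33410.2 CPM (log2 fold change −0.65, SE 0.19, adjusted p = 0.00692, edgeR). Of nuclear respiratory chain genes, 0 of 26 tested members were higher and 19 lower, with a median log2 fold change of −0.44, while 7 were lower with total-count scaling and 12 without RST day 14 replicate 2. Cox8b, the muscle form of an oxidase subunit, was at 216 ± 47.0 against 401 ± 31.9 CPM (−0.89), and Cox7a1, another muscle form, at 171 ± 35 against 272 ± 31.8 CPM (−0.67). Of fatty acid oxidation and citrate cycle genes, 0 of 21 tested members were higher and 8 lower, with a median log2 fold change of −0.38. That count was 0 with total-count scaling, 14 with DESeq2, 16 without RST day 14 replicate 1, 1 and 3 without RST day 14 replicates 2 and 4, and 4, 5, 2 and 5 without LST replicates 1 to 4. Of glycolysis genes, 8 of 22 tested members were higher and 7 lower, with a median log2 fold change of −0.29, beside 33.4% higher and 24.5% lower over all genes, and 11 were lower without RST day 14 replicate 4. The muscle forms Pfkm (−0.58) and Aldoa (−0.61), the muscle hexokinase Hk2 (−0.62) and the insulin-regulated glucose transporter Slc2a4 (−0.71) were lower, while the platelet-type phosphofructokinase Pfkp (1.41) and Eno1, the enolase of non-muscle cells (0.95), were higher. The muscle forms Eno3 (−0.49) and Pgam2 (−0.41) did not pass. Adipocyte genes were lower in part (1 of 20 higher and 7 lower, median −0.70), with 2 lower with total-count scaling or without RST day 14 replicate 2, 3 without RST day 14 replicate 4 or LST replicate 3, and 12 with the 2 groups fitted alone. Adipoq, adiponectin, stood at 9.63, 11.3, 6.56 and 9.36 against 15.8, 15.7, 15.4 and 20.9 CPM, without overlap and without a call.

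Cell cycle genes rose (21 of 25 higher and 1 lower, median 2.23). Mki67, the proliferation antigen, stood at 17.3, 32.6, 10.6 and 16.8 CPM in RST day 14 and 5.13, 1.96, 2.68 and 2.0 CPM in LST (log2 fold change 2.72, SE 0.39, adjusted p = 5.96e-06, edgeR), Cdk1, the mitotic kinase, at 4.93, 8.41, 3.55 and 5.26 against 0.801, 0, 0.298 and 0.409 CPM (log2 fold change 3.89, SE 0.47, adjusted p = 7.15e-07, edgeR), and Top2a, a topoisomerase of dividing cells, was at 14.7 ± 5.53 against 1.52 ± 0.814 CPM (3.28). The groups were separate for all 3. Cdkn1a, the p21 inhibitor, did not pass (0.39). Of the secretory stress genes, 11 of 19 tested members were higher and 4 lower, with a median log2 fold change of 0.47. Creb3l1, which drives collagen secretion in bone and fibroblasts, was at 32.4 ± 10.2 against 5.83 ± 0.577 CPM (2.48), while the chaperone gene Hspa5 (0.26) and the stress factor Ddit3 (0.02) did not pass.

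**Figure D3:**
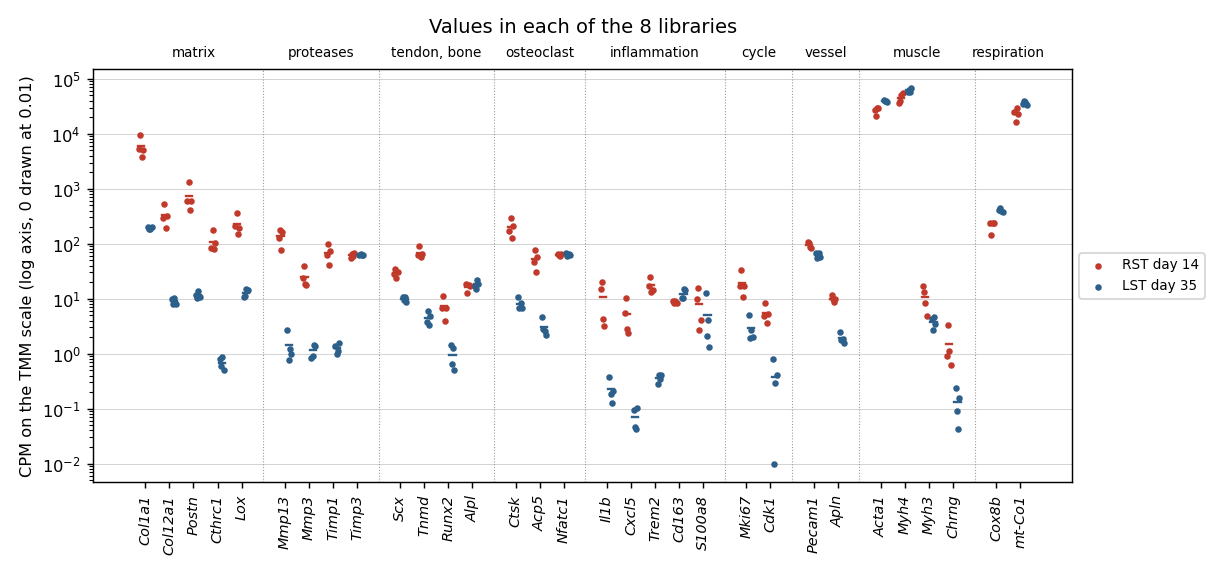
CPM of named genes (log axis, 0 drawn at 0.01), grouped by role, with 1 point per library of RST day 14 and LST day 35 and a bar at each group mean. Matrix, protease and inflammation genes such as Col1a1, Mmp13 and Il1b are separate by a wide gap, Timp3 and S100a8 overlap, and muscle and respiration genes such as Acta1 and mt-Co1 are lower in RST day 14 by a small step.

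**Figure D4:**
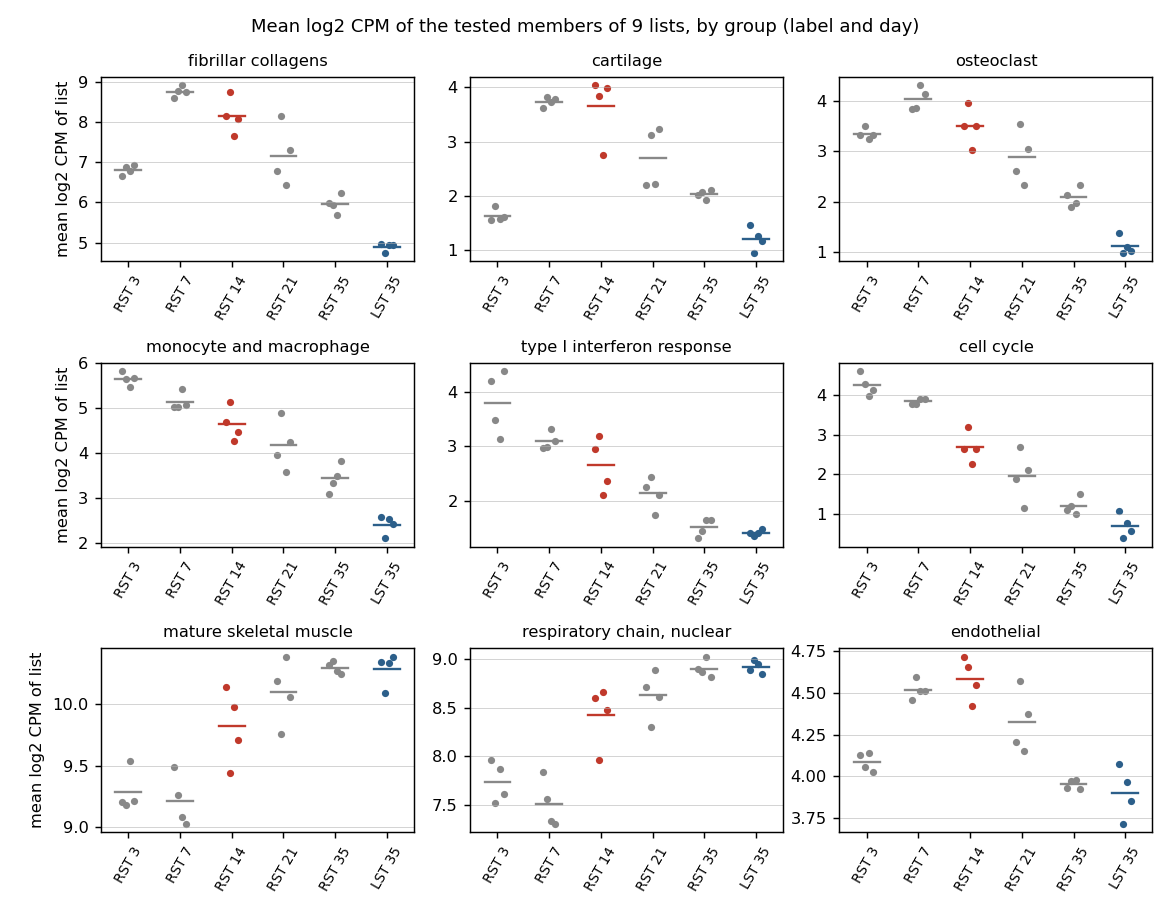
Mean log2 CPM over the members of selected gene lists in each joint library, by group, with 1 point per library and a bar at the group mean. The list of 21 collagen chains, titled fibrillar collagens, was at 7.65 to 8.74 in RST day 14 and 4.75 to 4.97 in LST. The type I interferon list was at 1.31 to 1.65 in RST day 35 and 1.36 to 1.48 in LST.

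The groups with the same label or a nearby day give the frame for these values. RST day 14 against RST day 35 differed in 7764 genes (48.1%), 4514 higher (28.0%) and 3250 lower (20.1%), RST day 35 against LST in 479 (2.97%), 471 higher and 8 lower, RST day 14 against RST day 7 in 6284 (38.9%), 3377 higher and 2907 lower, and RST day 14 against RST day 21 in 119 (0.737%), 105 higher (0.65%) and 14 lower (0.0867%). These comparisons share libraries with the first and are not independent of it. The smaller counts moved with the processing: the 479 ran from 182 (without RST day 35 replicate 4) to 544 with 1 library left out, and the 119 from 2 (without RST day 21 replicate 1) to 4466 (without RST day 21 replicate 2).

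On the same day, RST was above LST for a set of matrix and lining genes whose level in RST day 35 was near that of RST day 14. The genes in this and the next paragraph were chosen after their values were seen. Prg4 stood at 424, 1436, 621 and 1865 CPM in RST day 35, where the difference from LST was 4.35 and that of RST day 14 from RST day 35 was −0.14. Has1 stood at 7.59, 15.3, 8.75 and 28.7 CPM there (4.60 over LST, 0.29 below RST day 14). Fn1, fibronectin, was at 2533 CPM in RST day 14, 1957 CPM in RST day 35 and 163 CPM in LST, and Htra1, a matrix serine protease, at 140.0, 120.3 and 34.2 CPM. Mmp3 followed them at 24.8, 16.8 and 1.15 CPM. A gap of RST day 14 from RST day 35 that did not pass is no proof that these levels were equal.

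Other genes had a level in RST day 35 that was not called different from LST, as was true of 15670 of the 16149 genes tested. A missing call there is no proof that the level was back at that of LST. Col2a1 was at 123 CPM in RST day 14, 4.41 CPM in RST day 35 and 1.94 CPM in LST, with differences of 5.99 from LST and 4.81 from RST day 35. Matn3, matrilin-3 of growth cartilage, had the same calls (4.66, 0.236 and 0.0923 CPM), as did Mest, an imprinted gene (57.2, 3.72 and 3.35 CPM), and Dlk1 (7.05, 0.522 and 0.979 CPM). Il6 and Mki67 belonged here as well, with RST day 35 means of 0.0758 and 4.13 CPM. By the naming rule, the largest rises of RST day 14 over RST day 35 were led by Prss35, a secreted protease-like protein (5.21), Cnmd (4.97), Col2a1, and Aqp5, a water channel (4.71). With the rule's minimum mean count of 50 in the higher group, the largest falls were Tmem196 (−1.89) and Pkp1 (−1.55).

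Against the neighbouring days, RST day 14 was below RST day 7 for most cell cycle genes (0 higher and 23 lower of 25, against 20.9% higher and 18.0% lower over all genes in that comparison) and for the developmental myosins, where Myh3 differed by −3.29 and Myh8 by −2.97. It was above RST day 7 for adult muscle and respiration genes, with Acta1 at 0.87 and mt-Co1 at 1.12, where total-count scaling moves the median over all genes from −0.02 to −0.35. Col1a1 was at 11171 ± 1401 CPM on day 7, 5928 ± 2563 CPM on day 14 and 2709 ± 1862 CPM on day 21, and Arg1 was lower than on day 7 by a large factor (−3.56). Genes higher on day 14 than on both neighbouring days numbered 2 and genes lower than on both numbered 0. From day 14 to day 21 few genes were called, among them Col11a1 (1.75), Mdk (1.26) and Dlk1 (1.63), all higher on day 14.

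**Figure D5:**
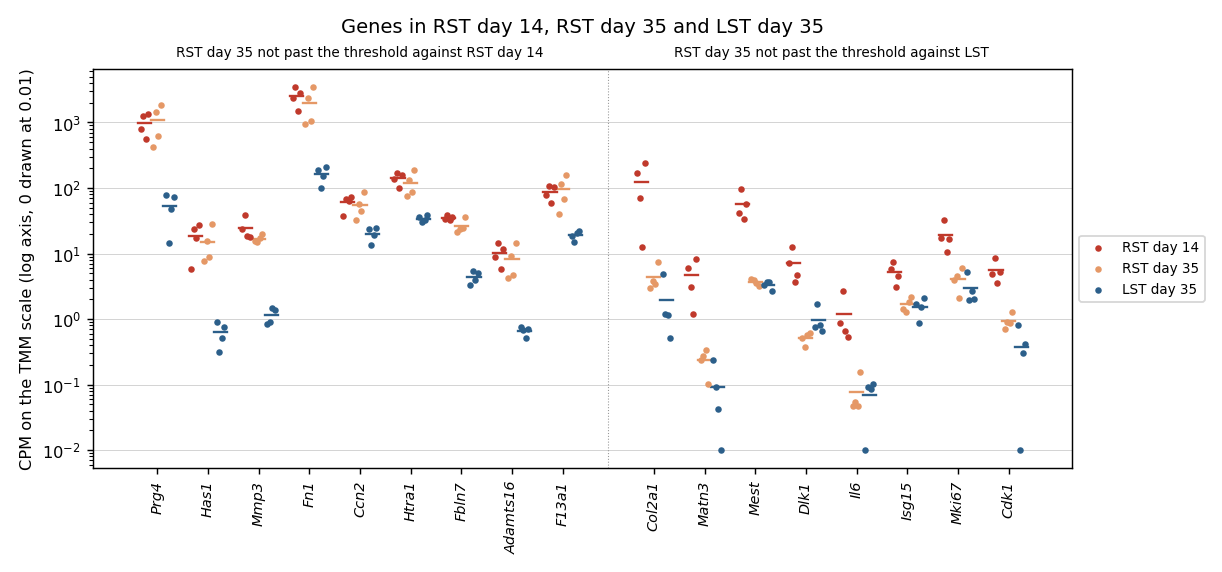
CPM (log axis, 0 drawn at 0.01) of genes chosen after their values were seen, with 1 point per library of RST day 14, RST day 35 and LST day 35 and a bar at each group mean. On the left are genes not past the threshold between RST day 14 and RST day 35, such as Prg4 at 988 and 1090 CPM against 53.3 CPM in LST, and on the right are genes not past it between RST day 35 and LST, such as Col2a1.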

How the data were processed

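The data are gene counts of joint soft tissue that the authors deposited for 24 libraries in 1 table. The submitters' processing notes name fastp, STAR and the mm10 mouse genome, without versions. How reads were counted, on which annotation and with which strand setting, is not given in the sources used here, so overlapping, antisense and near-identical genes are uncertain. The lymph node libraries of the study were not used.

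Samples were grouped by their labels. Genes passing edgeR's filterByExpr (minimum count 10) were fitted with TMM scaling and the quasi-likelihood test over all 6 joint groups, which share 1 estimate of the spread, and p-values were adjusted by the Benjamini-Hochberg method over all 16149 genes. The tools were R 4.3.3, edgeR 4.0.16, limma 3.58.1 and DESeq2 1.42.0. A prior count of 2 was used for log2 CPM. Gene positions and exon lengths came from GENCODE M21 on mm10, in which 36591 of 36604 genes were matched. Ratios and shares of gene pairs were compared by exact two-sided permutation tests of 4 against 4 libraries, with adjustment over 5 values. Counting intervals are exact at the 95% level and cover counting error only, as does the floor of 3 counts. Depth ran from 20129243 to 28024003 counts over the 8 libraries compared. Chi-square values per degree of freedom between libraries of 1 group were at least 8.27, so no library was counted as a copy. On simulated counts of 15418 genes with 200 changed, the test recovered 86% of 2-fold and 100% of 4-fold changes with 14 false calls. The planted changes went up and down in equal number and left out genes at low CPM. The differences in the real data were more numerous and uneven, so the simulation does not test the scaling.

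Genes are named by a rule: the largest rises and falls without overlap between groups (mean count 50 or more where the gene is higher), the key and most significant members of each list, genes that set day 14 apart from days 7 and 21, the most variable genes of RST day 14, and the largest differences from RST day 35. Genes named outside the rule are marked in the text. The members and lists were chosen with earlier results of these data known. Some genes are members of several lists, such as Csf1r, Trem2, Fmod, Cilp2 and Prg4, so the lists are not independent of each other. Alternatives were another test, other scalings, no low-count filter, fits of only 2 groups, a replicate block and each library left out.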

Additional observations from a re-analysis of the deposited data

Results flagged for a closer look

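In 7 of 104 sets of 4 values examined (the list levels, ratios and shares of each group) the highest or lowest library of a group stood apart from the other 3 by more than Dixon's 95% limit for 4 values, and chance flags about 1 in 20 groups. LST day 35 replicate 2 was the lowest of its group for the mean log2 CPM of the collagen list (4.75), elastic fibre genes (3.42) and mature skeletal muscle genes (10.09). RST day 14 replicate 3 was the lowest for cartilage genes (2.76), where the other libraries ran up to 4.04, and for epidermal genes (1.95). RST day 14 replicate 2 was the lowest for glycolysis genes (7.77). LST day 35 replicate 3 had the lowest share of Myh4 among limb myosins, at 85.6%. Without RST day 14 replicate 3 the calls over all genes numbered 9555, without RST day 14 replicate 2 they numbered 7663 and without LST replicate 2 they numbered 8563, against 9350 with all libraries.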

How the results depend on the processing

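The count of 9350 called genes ran from 7663, without RST day 14 replicate 2, to 9783 with DESeq2. The share that was higher ran from 52.5% with DESeq2 to 87.6% with total-count scaling, so the calls of small falls depend on the scaling. Of 510 named genes, 462 kept their side of the threshold with total-count scaling, of which 28 had no call and changed sign. A further 26 lost the call, 19 gained it with the same sign, and 3 moved from below 0 without a call to a call above 0 (Cd55 0.23, Rgs5 0.24, Nfatc1 0.25). The largest loss with a library left out was 34 genes, without RST day 14 replicate 2. With the replicate number as a block, 9403 genes were called. Same-numbered libraries correlated at −0.129 to 0.083 in their deviations in this comparison and none did so best with its own number. They ranged from 0.0924 to 0.678 for RST day 14 against RST day 21 and from 0.0829 to 0.191 for RST day 35 against LST, each with 3 of 4 best with its own number, a hint of pairing from the data. The labels do not pair the libraries, so the main fit used no pairing, and whether libraries were paired was not settled. With the replicate number as a block, RST day 14 against RST day 21 gave 372 calls, against 119 in the main fit. RST day 35 against LST gave 557 with it, against 479. Counts of 1 or 2 called members moved by over 1.5 times with a library left out in the osteoclast, protease inhibitor, growth factor, cytokine receptor, chemokine, complement, cell cycle, erythroid and epidermal lists.

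RST day 14 against RST day 35 gave 5249 to 8146 calls with a library left out, and 91.8% of calls were higher with total-count scaling. RST day 14 against RST day 7 gave 4320 to 7552, and with total-count scaling 14.5% were higher. RST day 35 against LST gave 783 calls with DESeq2, 227 with total-count scaling, 751 with no filter, 915 with the groups fitted alone and 182 (without RST day 35 replicate 4) to 544 with a library left out, where LST replicates 2 (216), 3 (291) and 4 (266) and RST day 35 replicate 2 (318) also moved it by over 1.5 times. RST day 14 against RST day 21 gave 1218 calls with DESeq2, 465 with total-count scaling, 570 with no filter, 372 with the replicate block and 2 to 4466 with a library left out, the extremes without RST day 21 replicates 1 and 2, and each of the 8 libraries moved it by over 1.5 times. It gave 0 calls by edgeR with the groups fitted alone, where 2224 genes had an unadjusted p below 0.05. The cause was not tested.

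With a library left out, the difference in the ratio of Tnfsf11 to Tnfrsf11b ran from 2.30 to 3.04, that of Chrng to Chrne from 2.22 to 3.18 and that of the developmental myosin share from 0.0232 to 0.0448, each with an exact permutation p of at least 0.0571, the smallest that 3 against 4 allows. The difference in the Myh4 share ran from −2.93 to 1.89, reversed without RST day 14 replicate 1. Genes with 3 or fewer LST counts have folds limited by depth and are given with counting intervals.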

Other observations

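Clock and glucocorticoid output genes were lower in part (2 of 18 higher and 9 lower, median −0.36, and 3 higher and 3 lower with total-count scaling; 4 were lower without RST day 14 replicate 2, and 5 without LST replicate 3 or 4). Arntl, the clock activator, stood at 33.0, 25.3, 27.2 and 20.3 CPM in RST day 14 and 52.8, 40.5, 44.0 and 49.4 CPM in LST (log2 fold change −0.82, SE 0.17, adjusted p = 0.000336, edgeR), and Zbtb16, a glucocorticoid-induced factor, was at 49.0 ± 15 against 102 ± 15.5 CPM (−1.05). Both were lower in every RST day 14 library than in any LST library. Per1 (−0.33) and Dbp (0.68) did not pass. The hour of sampling was not given in the sources used here.

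Of Schwann cell and nerve genes, 3 of 15 tested members were higher and 3 lower, with a median log2 fold change of −0.35, and 0 were lower without LST replicate 3 and 5 without RST day 14 replicate 3. The myelin gene Mbp, at 16.9, 9.51, 18.7 and 11 against 23.9, 10.4, 54.9 and 35.7 CPM, had a call (edgeR adjusted p = 0.00651) that was lost without LST replicate 3 (adjusted p = 0.0605), and its groups overlapped. Gap43, of growing axons and repair Schwann cells, rose from 0.204 ± 0.0817 to 1.46 ± 0.625 CPM (2.81). Immediate early genes were divided (7 of 16 higher and 1 lower, median 0.58): Fos was at 28.5 ± 14.3 against 21.5 ± 4.97 CPM and Jun at 109 ± 15.8 against 110.2 ± 22.0 CPM, while Junb rose by 1.42. Of erythroid and haematopoietic genes, 3 of 11 tested members were higher and 1 lower, with a median log2 fold change of −0.12, and of epidermal genes 1 of 3 was higher and 1 lower.

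Among genes at 5 CPM or more, those that varied most between RST day 14 libraries included cartilage genes, cytokines and metabolic genes. Col9a2 stood at 11.7, 5.80, 1.15 and 14.1 CPM, Cxcl2, a neutrophil chemokine, at 12.9, 12.8, 2.44 and 1.35 CPM, Hdc, which makes histamine, at 8.37, 9.93, 1.60 and 1.57 CPM and Pdk4, a brake on pyruvate oxidation, at 711, 67.9, 397 and 256 CPM. The library with the highest value was not the same for these genes. Sybu, a microtubule adaptor, was named as a gene higher on day 14 than on days 7 and 21 (0.85 and 1.01).

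Prg4 and Has1 had the same replicates on top. In RST day 14 and in RST day 35, replicates 2 and 4 were the highest for Prg4 (1257 and 1331 CPM, then 1436 and 1865 CPM) and for Has1 (23.7 and 26.8 CPM, then 15.3 and 28.7 CPM). For Prg4, LST replicate 2, at 14.4 CPM, was the lowest of its group. The numbers do not mark shared animals in the labels.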
